A study of Mus musculus with 8 samples.

Results

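Protein phosphatase 1 removes phosphate groups from serine and threonine residues, and its small catalytic subunit finds its substrates through a large set of partner proteins. The genes described here are the catalytic subunits Ppp1ca, Ppp1cb and Ppp1cc together with every gene whose symbol starts with Ppp1r, apart from the glycogen targeting subunits Ppp1r3a to Ppp1r3g. They were taken by symbol from probe sets that carry 1 gene symbol, and they number 38 of the 22180 genes measured. Of these, 36 are protein-coding genes and 2 are transcribed pseudogenes, Ppp1r2-ps7 and Ppp1r2-ps9. No filter on low values was applied, so all 38 are accounted for. The family was proposed with the differences between digoxin and vehicle hearts already known, so its differences and calls are a description.

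Hearts came from wild-type male mice 8 to 10 weeks old, labelled C57BL6JRj (C57BL6/J in the growth protocol), that had received 1 intraperitoneal injection at ZT5 and were killed at ZT9, where ZT0 is lights-on. The digoxin group (5 arrays) received 1 mg/kg of this cardiac glycoside, a drug that inhibits the Na/K-ATPase. The vehicle group (3 arrays) received a co-solvent of propylene glycol (40%), ethanol (10%), sodium phosphate (0.3%) and citric acid (0.08%). The design text counts 4 vehicle hearts, and the fourth was not analysed here. Transcripts of the whole heart were read on Affymetrix arrays of the type Mouse Gene 2.0 ST, and the deposited log2 values are relative ones, with each probe set set to a centre near 0. A value therefore shows how an array stands against the others for that gene, and levels of different genes cannot be compared.

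Most regulatory subunits bind the catalytic subunit through short docking motifs, of which the RVxF motif is the best known, and a catalytic subunit bound to different partners acts as a different enzyme. In heart muscle, protein phosphatase 1 counteracts protein kinase A on phospholamban and the ryanodine receptor, inhibitor-1 restrains it after beta-adrenergic stimulation, and myosin phosphatase removes phosphate from myosin light chains. In the nucleus, the subunit PNUTS (the product of Ppp1r10) joins the phosphatase with the proteins WDR82 and TOX4 in the PTW/PP1 complex, which dephosphorylates factors of RNA polymerase II transcription.

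The vehicle array of replicate 3 stood apart from the rest. Its values had an interquartile range of 0.216, against 0.0792 to 0.115 on the other 7 arrays. It held the lowest or the highest of the 8 values in 20 of the 38 phosphatase genes (52.6%) and in 54.4% of all genes. Leaving it out turned the sign of the difference in 8 of the 38 phosphatase genes and in 24.8% of all genes, so results are given with and without it where it matters. The array numbers in the labels run from 10 to 12 in vehicle hearts and from 13 to 17 in digoxin hearts, so treatment and the order of the arrays cannot be told apart.

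1 gene of the family, Ppp1r10, fell in digoxin hearts, and none rose. Ppp1r10 encodes PNUTS, and vehicle hearts held 2.09 times as much of its transcript. In limma, with Benjamini-Hochberg adjustment over all genes and a threshold of 0.05, 1.36% of all genes were called, 0.415% as lower and 0.947% as higher. The family's 1 of 38 was counted in the contrast with which the family was proposed, so nothing is read from it. At an unadjusted p under 0.05, 2 members stood higher (6.32% of all genes) and 2 lower (5.99% of all genes). A fit without moderation, which called 0.451% of all genes, and a fit with array weights, which called 2.77%, also called 1 member each.

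With Ppp1r10 included, the family's differences were about as large as those of all genes. The median log2 difference over the 38 genes was -0.01, as it was over all genes (-0.01). The median size of the difference, without its sign, was 0.06 in the family and 0.07 over all genes. In 25 of the 38 members the difference was at most 0.1 in size (65.8%, against 65.9% of all genes). The 95% interval lay inside a change of 1.5 times in 35 members (92.1%, against 96.1% of all genes). The members outside these limits were Ppp1r10, Ppp1cb and Ppp1r21, and the intervals of the last 2 include 0. The means were lower in digoxin hearts in 23 members and higher in 15 (39.5%, against 44.4% of all genes). Without vehicle replicate 3 the counts were again 23 and 15, but 8 members had changed sign.

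**Figure D1:**
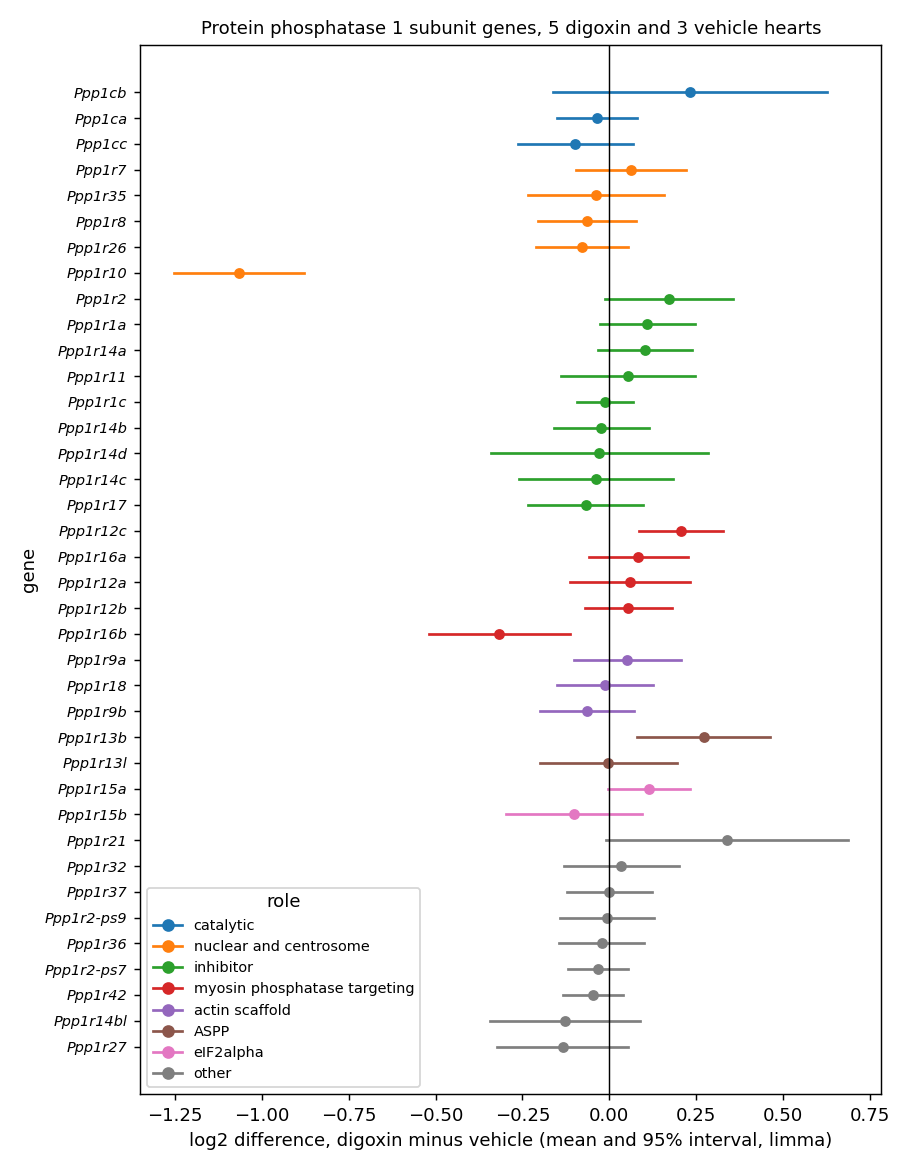
Log2 difference between digoxin and vehicle hearts (horizontal axis) for the 38 genes, grouped by role and coloured accordingly, with points for the limma estimate and lines for its 95% interval. Ppp1r10 lies at -1.07 with an interval of -1.25 to -0.88, and the other 37 genes lie between -0.32 and 0.34.

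**Figure D2:**
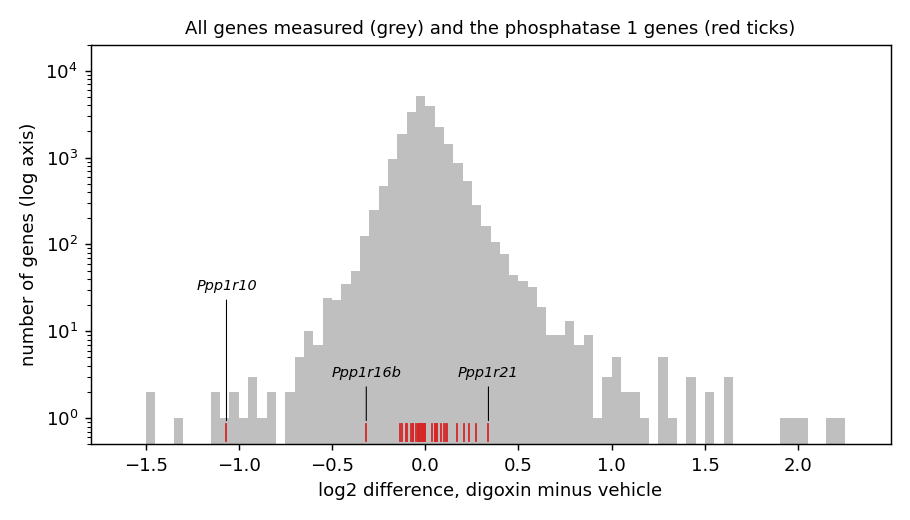
Number of genes (log axis) by log2 difference between digoxin and vehicle hearts for all 22180 genes (grey), with red ticks for the 38 phosphatase genes. The ticks cluster around 0, and Ppp1r10 at -1.07 holds the sixth place from the lowest difference among all genes.

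Among the nuclear and centrosomal subunits, Ppp1r10 was the gene that changed. Its centred log2 values were 0.81, 0.81 and 0.66 on the vehicle arrays of replicates 1, 2 and 3, and -0.45, -0.25, -0.32, -0.09 and -0.40 on the digoxin arrays of replicates 1 to 5. Every digoxin array lay below every vehicle array, with a gap of 0.75 between the groups. The group means were 0.76 ± 0.09 (SD, n = 3) in vehicle hearts and -0.30 ± 0.14 (SD, n = 5) in digoxin hearts. The log2 difference was -1.07 (SE 0.08, 95% interval -1.25 to -0.88, adjusted p = 0.000565 in limma), which puts digoxin hearts at 47.8% of the vehicle level. By size it was the third of the 92 genes that fell. With 1 array left out the difference lay between -1.12 and -1.03, and without vehicle replicate 3 it was -1.12.

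The other 4 genes of the group did not pass. Ppp1r7, which encodes the conserved leucine-rich repeat subunit SDS22, had vehicle values of 0.09, -0.0054 and -0.15 and digoxin values of 0.12, 0.14, 0.00, 0.0086 and -0.07. Digoxin replicates 1 and 2 were the highest arrays and vehicle replicate 3 the lowest, and the groups overlapped. The difference was 0.06 (SE 0.07, 95% interval -0.10 to 0.22), or -0.0016 without vehicle replicate 3. Ppp1r8, the gene of the nuclear inhibitor NIPP1, which is tied to pre-mRNA splicing, had vehicle values of 0.02, 0.13 and 0.03 and digoxin values of -0.11, -0.05, -0.02, 0.00 and 0.15. The vehicle values lay inside the digoxin range, and the difference was -0.06 (SE 0.06, 95% interval -0.21 to 0.08). The nucleolar subunit gene Ppp1r26 stood at -0.08 and Ppp1r35, whose protein belongs to centrioles, at -0.04.

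Ppp1r10 has neighbours in the class I histocompatibility region, and their values were read to see whether the fall extended along the chromosome. In the RefSeq gene order, Mrps18b, a mitochondrial ribosomal protein gene, lies directly before it and stood at 0.05 (SE 0.06). Abcf1, an ATP-binding cassette gene with a part in translation, lies directly after it and stood at 0.02 (SE 0.06). Of the 5 protein-coding genes on either side, 9 were measured, and none passed in limma. Their differences ran from -0.26 in H2-T24, a class I gene whose groups did not overlap (adjusted p = 0.261 in limma), to 0.05 in Mrps18b. At an unadjusted p under 0.05 the count was 1, H2-T24, which was lower (5.99% of all genes were). Ppp1r18, another member of the family, is the fifth gene before Ppp1r10 and stood at -0.01.

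In 4 members no digoxin array lay among the vehicle arrays, a state found in 8.16% of all genes. Ppp1r10 was lower (3.76% of all genes had separate groups in that direction), and Ppp1r12c, Ppp1r13b and Ppp1r15a were higher (4.4% of all genes). The gap between the groups was 0.75 in Ppp1r10, and 0.08, 0.01 and 0.0085 in the other three. The sequences in front of these 4 genes are shown because their groups were the separate ones. They are the 250 bases before a RefSeq start, build GRCm38.p6, written 5′ to 3′ on the gene's strand in lower case. Capitals mark matches, on either strand, to AGAACA (a glucocorticoid receptor half-site), CACGTG (an E-box), TGACGTCA (a cyclic AMP response element), AGGTCA (a nuclear receptor half-site), TGATGCAA (an ATF4-type element), GGGCGG (a GC box) and CCAAT.
Ppp1r10, first start (chr17:35916946-35917195, forward strand): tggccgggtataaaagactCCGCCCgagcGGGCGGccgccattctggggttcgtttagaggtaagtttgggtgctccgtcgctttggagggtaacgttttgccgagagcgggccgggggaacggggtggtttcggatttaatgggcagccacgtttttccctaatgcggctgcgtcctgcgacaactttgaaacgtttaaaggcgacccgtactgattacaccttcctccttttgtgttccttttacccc
Ppp1r10, second start (chr17:35919022-35919271, forward strand): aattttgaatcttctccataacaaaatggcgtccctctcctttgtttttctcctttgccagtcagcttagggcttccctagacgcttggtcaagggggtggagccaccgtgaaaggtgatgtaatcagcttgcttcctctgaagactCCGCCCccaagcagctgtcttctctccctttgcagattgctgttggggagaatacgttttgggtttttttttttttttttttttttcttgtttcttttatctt
Ppp1r12c (chr7:4501681-4501930, reverse strand): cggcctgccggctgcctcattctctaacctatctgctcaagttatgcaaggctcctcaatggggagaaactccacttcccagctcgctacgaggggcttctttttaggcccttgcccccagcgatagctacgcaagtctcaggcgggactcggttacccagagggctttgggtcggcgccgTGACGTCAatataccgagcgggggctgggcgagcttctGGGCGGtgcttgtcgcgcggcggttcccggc
Ppp1r13b (chr12:111908056-111908305, reverse strand): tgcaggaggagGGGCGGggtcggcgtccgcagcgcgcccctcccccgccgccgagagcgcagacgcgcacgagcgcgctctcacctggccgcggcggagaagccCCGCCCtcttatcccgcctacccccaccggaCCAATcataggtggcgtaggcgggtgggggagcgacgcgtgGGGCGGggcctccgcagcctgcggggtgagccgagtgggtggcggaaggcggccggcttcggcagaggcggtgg
Ppp1r15a (chr7:45526269-45526518, reverse strand): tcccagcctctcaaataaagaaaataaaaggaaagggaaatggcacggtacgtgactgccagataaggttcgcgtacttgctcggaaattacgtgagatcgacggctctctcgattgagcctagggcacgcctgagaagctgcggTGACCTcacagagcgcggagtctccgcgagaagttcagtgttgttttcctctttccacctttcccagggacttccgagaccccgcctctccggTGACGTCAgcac
Both Ppp1r10 windows and that of Ppp1r12c lie inside the span RefSeq gives for the gene, so that span begins further upstream. Of the Ppp1r13b window, 64 of the 250 bases lie inside its gene's span, and of the Ppp1r15a window 0 do.

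The Ppp1r10 windows held GC boxes and none of the other 6 motifs. The first had matches that begin 231 and 221 bases before the start, and the second had 1 that begins 103 bases before it. The cyclic AMP response element TGACGTCA occurred in 2 of the 38 windows found for 30 members (5.26%), those of Ppp1r12c, 69 bases before the start, and of Ppp1r15a, 12 bases before it. Among all 32851 windows it occurred in 1.55%, and in 1.92% of those of protein-coding genes. GC boxes occurred in 57.9% of the members' windows, against 42.6% of windows of protein-coding genes and 32.7% of all windows. The glucocorticoid half-site AGAACA occurred in 4 member windows (10.5%, against 13.7% of windows of protein-coding genes and 16.1% of all). With the same 2 backgrounds, the E-box occurred in 1 (2.63%, against 6.63% and 6.02%) and AGGTCA in 3 (7.89%, against 12.8% and 14.0%). CCAAT occurred in 8 (21.1%, against 35.4% and 33.8%). TGATGCAA occurred in 0 member windows and in 0.791% of all windows. A match describes these letters and shows no binding. The members' windows were richer in CpG, with a median of 18 CpG in 250 bases against 10 for protein-coding genes. Members with several windows count more than once in these shares and medians, and some windows of Ppp1r18 and Ppp1r8 overlap.

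**Figure D3:**
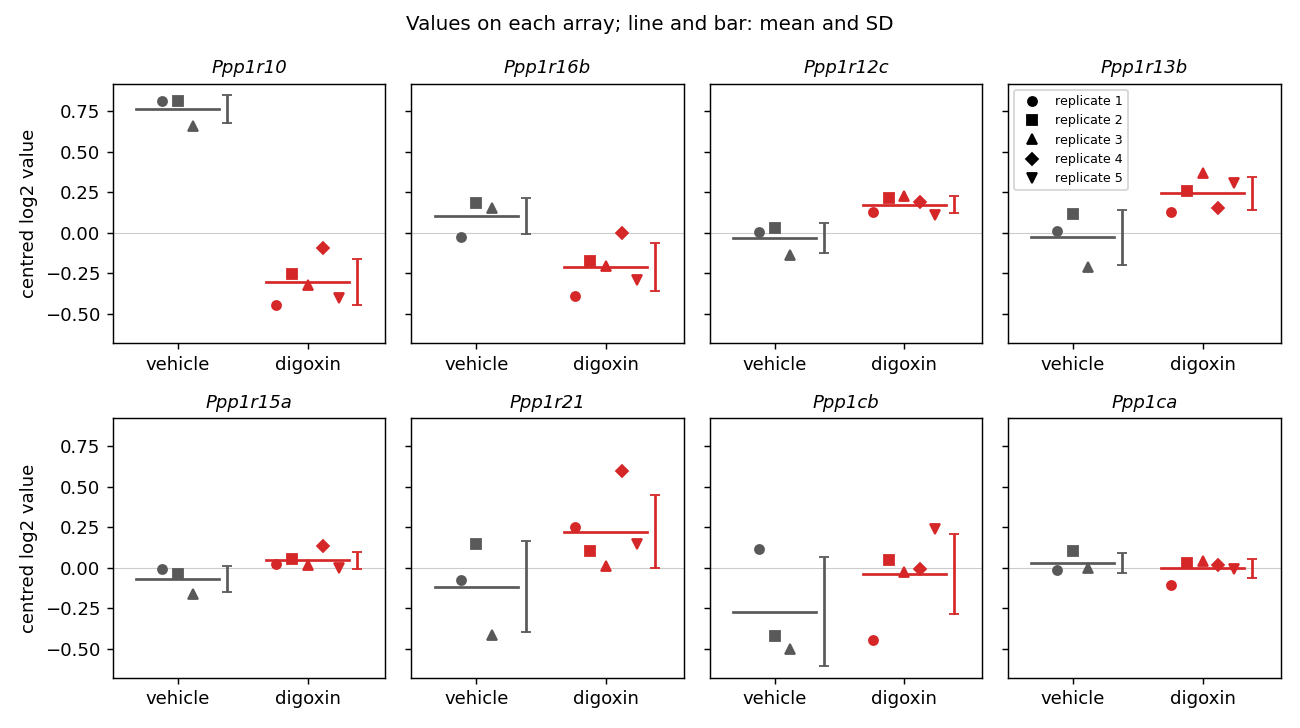
Centred log2 value on each array (vertical axis) for 8 members, with vehicle arrays in grey and digoxin arrays in red, a symbol for each replicate number, and the mean (line) and SD (bar) of the group. Ppp1r10 splits into separate groups with a gap of 0.75, while Ppp1cb spreads from -0.50 to 0.24 and its groups overlap.

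The catalytic subunits did not pass in limma, and at an unadjusted p under 0.05 the count was also 0 of 3. Ppp1ca, the gene of the alpha isoform, had vehicle values of -0.01, 0.10 and 0.00, and digoxin values of -0.11, 0.03, 0.04, 0.02 and -0.0060. The groups overlapped, and the difference was -0.04 (SE 0.05, 95% interval -0.15 to 0.08). Ppp1cc, the gamma isoform, had vehicle values of -0.0049, 0.08 and -0.05 and digoxin values of -0.23, -0.12, 0.0074, 0.06 and -0.18. Digoxin replicates 1, 2 and 5 lay below every vehicle array and the others among them, and the difference was -0.10 (SE 0.07, 95% interval -0.26 to 0.07).

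Ppp1cb, the gene of the beta isoform that joins myosin phosphatase, was the most variable member. Its vehicle values were 0.11, -0.42 and -0.50, and its digoxin values -0.44, 0.05, -0.03, -0.0083 and 0.24. The low values lay on 2 vehicle arrays and 1 digoxin array, so the groups overlapped over most of the range. The spread within groups (SD 0.28) exceeded that of 98.1% of all genes, and the difference was 0.23 (SE 0.17, 95% interval -0.16 to 0.63), or 0.12 without vehicle replicate 3. Its 2 probe sets did not behave alike. The first ran from -0.26 to 0.11 with a difference of 0.12. The second ran from -0.997 on digoxin replicate 1 to 0.49 on digoxin replicate 5, with a difference of 0.34. Ppp1r14c and Ppp1r18, the other members with 2 probe sets, had differences of opposite sign in them, 0.03 and -0.10 in Ppp1r14c and 0.10 and -0.13 in Ppp1r18.

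None of the 9 measured inhibitors passed, in limma or at an unadjusted p under 0.05, and the count was also 0 without moderation and with array weights. Their differences ran from -0.07 to 0.17, with a median of -0.01. Ppp1r1a encodes inhibitor-1, which blocks the phosphatase once protein kinase A has phosphorylated it. Its vehicle values were -0.14, -0.05 and 0.00, and its digoxin values 0.00, -0.02, 0.05, 0.19 and 0.00. Vehicle replicate 3 lay level with the middle of the digoxin arrays, so the groups overlapped, and the difference was 0.11 (SE 0.06, 95% interval -0.03 to 0.25). Ppp1r2, the gene of inhibitor-2, had vehicle values of -0.03, 0.03 and -0.32 and digoxin values of 0.16, 0.07, -0.02, 0.10 and 0.03. Vehicle replicate 3 was the low one, and the other vehicle arrays lay near the lower end of the digoxin range. The difference, the largest among these 9, was 0.17 (SE 0.08, 95% interval -0.01 to 0.36), and 0.06 without vehicle replicate 3.

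Ppp1r11, which encodes inhibitor-3, a ubiquitin ligase as well, had vehicle values of -0.09, 0.09 and -0.30 and digoxin values of -0.07, -0.17, 0.01, 0.00 and 0.00. Both the highest and the lowest value lay on vehicle arrays. The difference was 0.05 (SE 0.08) and turned to -0.05 without vehicle replicate 3. Ppp1r14a, the gene of CPI-17, inhibits myosin phosphatase after phosphorylation by protein kinase C and is known from smooth muscle. Its vehicle values were -0.0043, 0.01 and -0.12, and its digoxin values 0.17, 0.00, 0.02, -0.0076 and 0.15. Digoxin replicates 1 and 5 were high, and the groups overlapped. The difference was 0.10 (SE 0.06, 95% interval -0.03 to 0.24), and 0.06 without vehicle replicate 3. The mean over 6 smooth muscle markers ran from 0.02 to 0.85 in digoxin hearts and from 0.04 to 0.21 in vehicle hearts. By their means, 5 of these markers were higher in digoxin hearts and 1 lower, and none passed the test. In the order of the replicates, the marker mean was 0.85, 0.26, 0.02, 0.52 and 0.09 on the digoxin arrays. On the vehicle arrays it was 0.21, 0.08 and 0.04. Its part in the Ppp1r14a values was not tested. In whole tissue, fewer cells of a type and less RNA per cell cannot be told apart.

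The related genes Ppp1r14b, Ppp1r14c and Ppp1r14d stood at -0.02, -0.04 and -0.03. In Ppp1r14d the vehicle arrays disagreed, with values of -0.25, -0.17 and 0.38 for replicates 1, 2 and 3, and its difference turned to 0.17 without replicate 3. Ppp1r17, the gene of the Purkinje cell protein G-substrate, stood at -0.07. Ppp1r1c stood at -0.01 and hardly varied, and its spread within groups exceeded that of 1.1% of all genes. Ppp1r1b, the gene of DARPP-32, was not analysed here, since its probe set carries a second symbol.

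Among the 5 targeting subunits of myosin phosphatase, 4 had higher means in digoxin hearts (80%, against 44.4% of all genes) and 1 a lower mean. Their median difference was 0.06, and 0.03 without vehicle replicate 3. None of the 5 passed in limma, without moderation or with array weights. At an unadjusted p under 0.05 there were 1 higher and 1 lower (6.32% and 5.99% of all genes). Ppp1r12c, which encodes MBS85, had vehicle values of 0.0068, 0.03 and -0.14 and digoxin values of 0.13, 0.22, 0.23, 0.19 and 0.11. All digoxin arrays lay above all vehicle arrays, and the difference was 0.21 (SE 0.05, 95% interval 0.09 to 0.33, adjusted p = 0.134 in limma). Its adjusted p lay above the threshold in every alternative fit as well, with a lowest value of 0.105. Without vehicle replicate 3 the difference was 0.16.

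Ppp1r16b, which encodes TIMAP, a subunit known from endothelial cells, had the second-lowest difference of the family. Vehicle values were -0.02, 0.19 and 0.15, and digoxin values were -0.39, -0.17, -0.21, 0.00 and -0.29. Digoxin replicate 4 lay above vehicle replicate 1 by 0.02, so the groups overlapped at that 1 point. The difference was -0.32 (SE 0.09, 95% interval -0.52 to -0.11, adjusted p = 0.171 in limma), and -0.29 without vehicle replicate 3. The lowest adjusted p over the alternative fits was 0.0678. The mean over 7 endothelial markers ran from -0.12 to -0.02 in digoxin hearts and from -0.18 to 0.05 in vehicle hearts, with 4 markers lower and 3 higher by their means and none past the test. In the order of the replicates, that mean was 0.05, 0.03 and -0.18 on the vehicle arrays. On the digoxin arrays it was -0.12, -0.06, -0.10, -0.02 and -0.06. The part of endothelial cells was not tested.

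Ppp1r12a, the gene of MYPT1, the main targeting subunit of smooth muscle, had vehicle values of 0.12, 0.04 and -0.19 and digoxin values of 0.07, 0.05, -0.04, 0.16 and -0.0054. The low value was that of vehicle replicate 3, and the groups overlapped. The difference was 0.06 (SE 0.08, 95% interval -0.11 to 0.23) and -0.03 without that array. Ppp1r12b, the gene of the heart and skeletal muscle form MYPT2, had vehicle values of 0.10, -0.08 and -0.08 and digoxin values of 0.07, 0.04, 0.06, 0.03 and -0.04. The groups overlapped, since the highest and the lowest values both lay on vehicle arrays. The difference was 0.05 (SE 0.05, 95% interval -0.07 to 0.18). Ppp1r16a, the gene of MYPT3, stood at 0.08.

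Ppp1r13b and Ppp1r13l encode ASPP1 and iASPP, ankyrin repeat proteins that bind p53, the former promoting and the latter restraining its action on apoptosis genes. Ppp1r13b had vehicle values of 0.01, 0.12 and -0.21, and digoxin values of 0.13, 0.26, 0.37, 0.16 and 0.31. The groups were separate by 0.01, and the difference was 0.27 (SE 0.08, 95% interval 0.08 to 0.46, adjusted p = 0.218 in limma). Without vehicle replicate 3 it was 0.18. Ppp1r13l stood at -0.0029 (95% interval -0.20 to 0.19).

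Ppp1r15a and Ppp1r15b bring the phosphatase to eIF2 alpha and so restore translation during stress; the first (GADD34) is the stress-induced form and the second (CReP) the constitutive one. Ppp1r15a had vehicle values of -0.0085, -0.04 and -0.16 and digoxin values of 0.02, 0.05, 0.02, 0.13 and 0.00. The groups were separate by 0.0085, less than the spread within either group, and the difference was 0.11 (SE 0.05, 95% interval -0.0033 to 0.23, adjusted p = 0.422 in limma). Without vehicle replicate 3 it was 0.07. Ppp1r15b had vehicle values of 0.0062, 0.26 and 0.11 and digoxin values of -0.05, -0.13, 0.11, 0.20 and -0.01. The highest value lay on vehicle replicate 2 and the other vehicle arrays lay among the digoxin arrays. The difference was -0.10 (SE 0.09, 95% interval -0.30 to 0.09).

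The actin scaffolds neurabin (Ppp1r9a), spinophilin (Ppp1r9b) and phostensin (Ppp1r18) stood at 0.05, -0.06 and -0.01, and none passed by any of the fits named above. Ppp1r9a turned to -0.03 and Ppp1r18 to 0.04 without vehicle replicate 3. Ppp1r21, whose protein works in endosomal trafficking, had the highest difference of the family at 0.34 (SE 0.15, 95% interval -0.0090 to 0.69, adjusted p = 0.42 in limma). Its vehicle values were -0.08, 0.14 and -0.42, and its digoxin values 0.25, 0.10, 0.01, 0.60 and 0.15. The high value lay on digoxin replicate 4 and the low one on vehicle replicate 3, and without the latter the difference was 0.19. Ppp1r27, which encodes a protein that binds dysferlin, had vehicle values of -0.09, 0.08 and 0.30 and digoxin values of 0.00, -0.02, -0.06, -0.13 and 0.03. The vehicle arrays spanned most of the range, with replicate 3 the highest. The difference was -0.13 (SE 0.08) and -0.03 without that array. Ppp1r14bl, a gene related to Ppp1r14b, had vehicle values of -0.11, 0.33 and 0.17 and digoxin values of 0.00, -0.11, 0.13, -0.03 and 0.02. Vehicle replicates 2 and 3 were high and replicate 1 was the lowest, and the difference was -0.13 (SE 0.09). The remaining 4 protein-coding members, Ppp1r32, Ppp1r36, Ppp1r37 and Ppp1r42, ran from -0.05 to 0.04. The pseudogenes Ppp1r2-ps7 and Ppp1r2-ps9 stood at -0.03 and -0.0054. Ppp1r2-ps9 and Ppp1r36 each turned to 0.03 without vehicle replicate 3. Probes of the pseudogenes may share sequence with Ppp1r2, and those of Ppp1r14bl may share it with Ppp1r14b, so these values are uncertain.

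**Figure D4:**
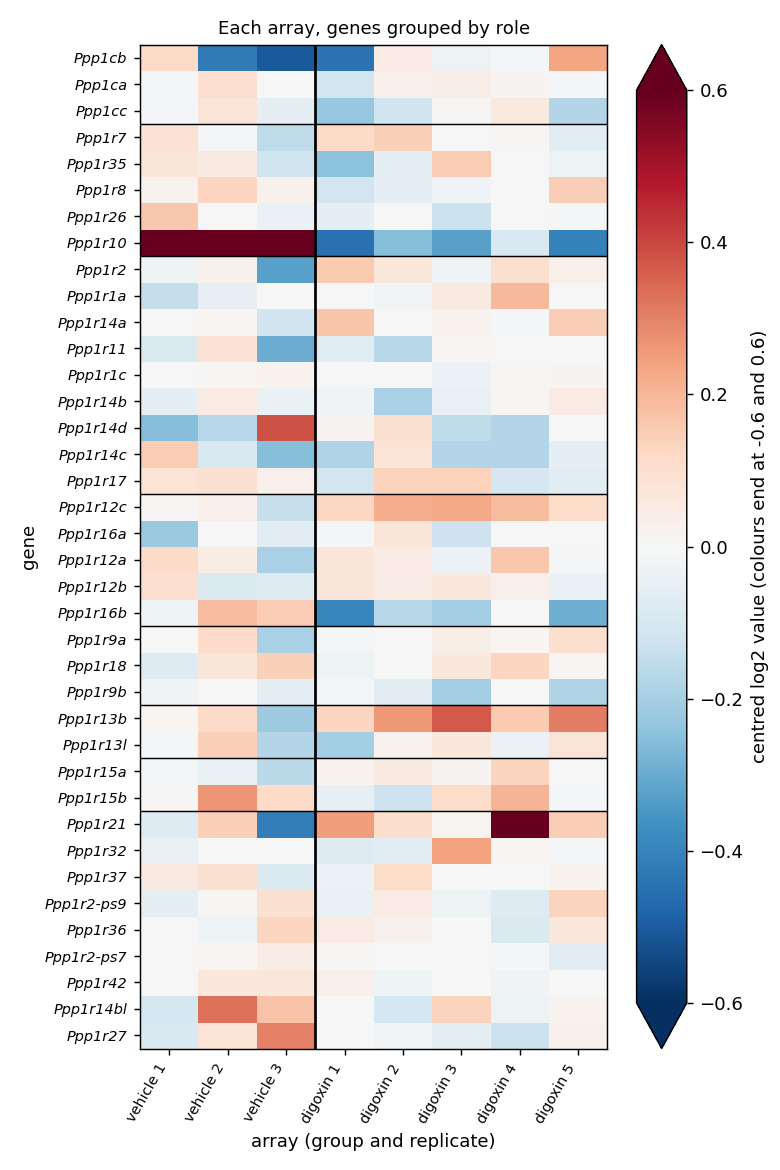
Centred log2 value of each member (rows, grouped by role) on each array (columns, vehicle to the left of the black line), coloured from -0.6 to 0.6. Ppp1r10 is the row with vehicle values of 0.66 to 0.81 against digoxin values of -0.45 to -0.09, and vehicle replicate 3 holds the lowest or highest value in 20 of the 38 rows.

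Cell type markers were read beside Ppp1r10, since atrial marker levels differed between hearts. The mean over 5 atrial markers, all of them lower by their means in digoxin hearts and none past the test, ran from -0.54 to 2.17 in digoxin hearts and from 0.35 to 2.72 in vehicle hearts. In the order of the replicates, the atrial mean was 2.72, 1.78 and 0.35 on the vehicle arrays. On the digoxin arrays it was 0.42, -0.34, 1.29, 2.17 and -0.54. The Ppp1r10 values of the same arrays are given above. The part of atrial content in the Ppp1r10 difference was not tested. The mean over 7 ventricular markers ran from -0.07 to 0.04 in digoxin hearts and from -0.04 to 0.04 in vehicle hearts. The fibroblast mean ran from -0.08 to 0.10 and from -0.04 to 0.20, the macrophage mean from -0.04 to 0.28 and from -0.23 to 0.18, and the skeletal muscle mean from -0.09 to 0.05 and from -0.07 to 0.10. All 7 marker lists overlapped between the groups, and no marker passed in limma. Centred values do not show whether a marker is absent, so the labelled tissue was not checked by level.

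The partners and substrates of these subunits were followed in lists. Of 14 measured genes around the PTW/PP1 complex and its transcription targets, none passed in limma, while at an unadjusted p under 0.05, 4 stood higher and 1 lower (6.32% and 5.99% of all genes), and 2 passed with array weights (2.77% of all genes). The median difference was 0.11, and 0.01 without vehicle replicate 3. Wdr82, the WD40 partner of PNUTS, had vehicle values of -0.0023, 0.16 and 0.0032 and digoxin values of -0.18, -0.19, -0.25, -0.13 and -0.25. All digoxin arrays lay below all vehicle arrays, and the difference was -0.25 (SE 0.05, adjusted p = 0.0692 in limma, and 0.0148 with array weights). Tox4, the DNA-binding partner, had vehicle values of 0.0067, 0.19 and -0.13 and digoxin values of 0.05, 0.08, 0.01, 0.00 and -0.04. The digoxin arrays all lay inside the vehicle range, and the difference was 0.00035 (SE 0.07, 95% interval -0.16 to 0.16). Myc, whose protein is stabilised by PNUTS, had vehicle values of -0.15, -0.13 and -0.06 and digoxin values of 0.39, 0.09, 0.28, 0.48 and 0.26. The groups did not overlap, and the difference was 0.41 (SE 0.08, adjusted p = 0.051 in limma). Its adjusted p came under the threshold in 4 other fits, those with quantile normalization, with median and scale normalization, without digoxin replicate 2, and with array weights. Rb1, the retinoblastoma gene, whose protein is dephosphorylated by the phosphatase, stood at 0.13 (SE 0.09), and at 0.0028 without vehicle replicate 3, whose value of -0.38 was the lowest.

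Of 12 measured genes of the integrated stress response, which is ended by the Ppp1r15 subunits, none passed in limma. At an unadjusted p under 0.05, 5 stood higher and 2 lower (6.32% and 5.99% of all genes). By their means, 8 were higher and 4 lower, with a median difference of 0.16, and 0.09 without vehicle replicate 3. Groups were separate in 4 higher and 0 lower genes (4.4% and 3.76% of all genes). The transcription factor gene Atf4 had vehicle values of 0.17, 0.36 and 0.00 and digoxin values of 0.06, -0.15, -0.09, -0.10 and -0.25. Digoxin replicate 1 lay above vehicle replicate 3, so the groups overlapped. The difference was -0.28 (SE 0.09, adjusted p = 0.241 in limma), and it passed with array weights, as 2.77% of all genes did. Ddit3, the gene of CHOP, stood at -0.20 (SE 0.08, adjusted p = 0.382 in limma), and the eIF2 alpha kinase gene Eif2ak4 at 0.40 (adjusted p = 0.105 in limma), passing with quantile normalization and with median and scale normalization. Among 12 genes of myosin light chain phosphorylation, none passed. In this list 1 stood higher and 1 lower at an unadjusted p under 0.05 (6.32% and 5.99% of all genes). Myl2, the ventricular regulatory light chain gene, stood at -0.28 with separate groups. The atrial light chain gene Myl7 stood at -1.46 (SE 0.95), and its groups overlapped. Its difference was -2.50 without vehicle replicate 3.

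The 12 genes of cardiac phosphatase substrates and anchors lay between -0.11 in Akap6, a kinase anchor gene, and 0.10 in Gsk3b, with none past limma or an unadjusted p under 0.05. Of 18 other genes whose proteins bind the phosphatase, none passed in limma. At an unadjusted p under 0.05, 4 of them stood higher and 1 lower (6.32% and 5.99% of all genes). Phactr4, an actin and phosphatase regulator gene, was the highest at 0.35 (adjusted p = 0.0736 in limma), and it passed in 3 other fits, those with array weights, with quantile normalization, and with vehicle replicate 3 and digoxin replicate 4 both left out. Of 15 catalytic subunit genes of other serine and threonine phosphatases, 13 had higher means in digoxin hearts (86.7%, against 44.4% of all genes) and none passed in limma. At an unadjusted p under 0.05, 4 stood higher and 0 lower (6.32% and 5.99% of all genes). Their median was 0.12, and 0.08 without vehicle replicate 3. The fit without moderation called no gene in these lists.

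Of the 7 glycogen targeting subunits, which bind the same catalytic subunits, 1 rose (0.947% of all genes did) and 1 fell (0.415% of all genes). Ppp1r3c, the gene of PTG, rose by 1.27 (SE 0.16) and Ppp1r3b, the gene of the liver-type subunit, fell by 0.55 (SE 0.06, adjusted p = 0.00464 in limma). Ppp1r3c did not pass in the fit without moderation.

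**Figure D5:**
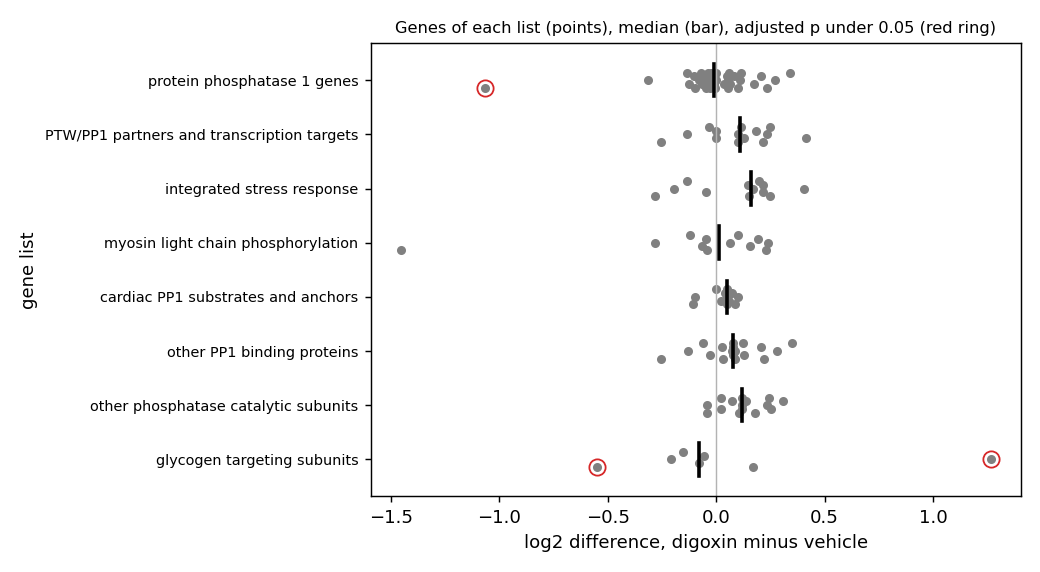
Log2 difference between digoxin and vehicle hearts (horizontal axis) for the genes of each list (points), with the list's median (black bar) and a red ring for genes with an adjusted p under 0.05 in limma. Rings appear for Ppp1r10 at -1.07 and for Ppp1r3b (-0.55) and Ppp1r3c (1.27) among the glycogen targeting subunits.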

How the data were processed

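Heart RNA was measured on 8 arrays, 5 of digoxin and 3 of vehicle mice. Per the series design text, the authors normalised raw arrays with Robust Multi-array Average, and the deposited log2 values stand relative to a constant of each probe set, which no source names and which cancels between arrays. The submitters' processing notes name limma, with versions not given in the sources used here.

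Of 34351 probe sets, 23521 carry 1 gene symbol in the platform annotation. Their mean per gene gave 22180 genes, and the 38 members rest on 41 probe sets. A further 3 probe sets with a member's symbol and another were not used. R 4.3.3 with limma 3.58.1 compared the groups (eBayes after lmFit, two-sided, no covariate, Benjamini-Hochberg over all genes, threshold 0.05), with 6 residual and 2.75 prior degrees of freedom. SE and 95% intervals come from this fit, and SD is between arrays. The labels do not say that each array is a separate mouse, so p values reflect spread among these arrays, which may be technical. No 2 arrays were duplicates. The fit was tested on simulated data with known changes, where the share of false calls lay above the nominal threshold.

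Members, lists and tests were chosen with earlier results of these data known. Full values were given for members past the test, the 5 largest differences each way, the catalytic subunits and 8 further subunits, 20 members in all. Every member could be named, and of the related lists the genes past the test and those at the ends of a list, the latter after their values were seen. Eif2ak4 and Phactr4 were named that way, and Myl2 for its separate groups. Supt5h and Eif2s1 were not analysed here. Promoter sequences are from RefSeq (GRCm38.p6). Protein sequences were not used here. Alternatives were other normalizations, genes with 1 probe set alone, other variance models, array weights, the replicate number as a block, and arrays left out.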

Additional observations from a re-analysis of the deposited data

Results flagged for a closer look

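In the digoxin group, 2 of the 38 members had an array that lay far from the other 4 by Dixon's test at the 95% level, which chance gives in about 1 of 20 groups. In Ppp1r32 the value on digoxin replicate 3 was 0.24, against -0.08 to 0.01 on the other digoxin arrays. In the pseudogene Ppp1r2-ps7 the value on digoxin replicate 5 was -0.0640, against -0.0067 to 0.0057 on the others. Neither gene passed in limma, and the vehicle group of 3 arrays is too small for this test.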

How the results depend on the processing

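The fall of Ppp1r10 kept its direction in all 16 alternative fits and passed in 15 of them. With the replicate number as a block it was -1.10 with an adjusted p of 0.0644 in limma, so 0 members were called there, and Ppp1r3b and Ppp1r3c did not pass there either. That block also lowered the calls over all genes to 11 higher and 1 lower. Same-numbered arrays correlated at -0.197, -0.0177 and 0.0236 in their deviations from the group means. No vehicle array correlated best with its own number, but so few arrays cannot decide whether the numbers pair the samples. With 1 array left out, Ppp1r10 lay between -1.12 and -1.03, with 1 member lower and 0 higher each time. Over all genes (210 higher and 92 lower with all arrays), such fits called 123 to 185 higher and 29 to 189 lower, the most of both without vehicle replicate 3. Higher calls were 319 with quantile normalization. Calls were 76 higher and 24 lower without moderation, 327 and 166 at a threshold of 0.1, and 95 and 23 at 0.01. Lower calls were 320 with array weights and 282 without vehicle replicate 3 and digoxin replicate 4 together. The cause of these shifts was not tested.

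Of 20 members followed through these fits, 16 kept their sign. With 1 array left out, Ppp1ca lay between -0.0563 and 0.0010 (the latter without vehicle replicate 2). In the same fits Ppp1r7 lay between -0.0016 and 0.119, Ppp1r11 between -0.0460 and 0.147 and Ppp1r12a between -0.0308 and 0.124, each lowest without vehicle replicate 3. Ppp1r11 also turned to -0.00094 with quantile normalization, -0.0100 with median and scale normalization, -0.0703 with array weights and -0.0576 without vehicle replicate 3 and digoxin replicate 4 together. Ppp1r12a turned to -0.0133 with array weights and -0.0589 without both arrays. None of these 4 passed in any fit. The number of arrays limits every value.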
